A study of Mus musculus with 2 samples.

Results

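The Fos and Jun family supplies the subunits of AP-1, a transcription factor made of pairs of proteins. Its 7 genes here are Fos, Fosb, Fosl1 and Fosl2 on the Fos side and Jun, Junb and Jund on the Jun side. The rule took every row of the deposited value table that the MG_U74Av2 annotation assigns to exactly 1 of these genes, which gave 9 probe sets for 7 genes out of 8251 genes named on the array. Fos and Junb have 2 probe sets each and the other 5 genes have 1. A probe set is a group of short probes for 1 transcript, and its signal is a single intensity on a linear scale. The samples were total RNA of MEF 3T3 cells, mouse embryo fibroblasts immortalised in culture, which normally grow attached. The fibronectin group was plated for 30 min on 10 µg/ml fibronectin, a matrix glycoprotein that cells bind through integrins. The suspension group was kept unattached, for a time the labels do not state. Both groups were in serum-free DMEM, and each is 1 RNA sample on 1 array. The series text speaks of 2 replicates, which the labels do not place in any group, and each array is taken here as 1 sample. According to the labels, the pair was made to find genes that fibronectin induces and to look at MAPK signalling.

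Fos and Jun proteins bind DNA through a basic region and pair through a leucine zipper. Jun proteins can pair with themselves or with Fos proteins, whereas Fos proteins need a Jun partner. In fibroblasts Fos, Fosb, Jun and Junb are immediate early genes, which growth factors and adhesion switch on within minutes through MAP kinases acting on factors already present. Fosl1 and Fosl2, also called Fra-1 and Fra-2, usually follow later and are themselves AP-1 targets, and Jund is expressed in resting cells.

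With 1 array a group there is no replicate, so none of the differences below was tested, and "higher" or "lower" refers to 1 array set against the other. The MAS5 signals were scaled to a common trimmed mean, and signals under a floor of 490 were raised to it before the log2 ratio, fibronectin minus suspension, was taken. A ratio with 1 array under the floor is a bound, written as "at least". Genes that reached the floor on 1 or both arrays are called measured, and there were 6385 of them, with a median log2 ratio of -0.088. The only spread at hand is that between probe sets of the same gene on the same 2 arrays. For 1146 genes with more than 1 measured probe set it gave an SD of 0.68 for a single log2 ratio. For the 73 genes with both probe sets among the brightest 10% it was 0.38. This spread holds no variation between cultures.

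The arrays differed in more than the cells' attachment. Of 32 instrument settings given for both, 4 differed, namely chip lot, operator, fluidics module and scan date. These cannot be told apart from the group. The 3′ over 5′ signal of the control probe sets, a measure of RNA and labelling quality, was 0.841 on fibronectin and 1.47 in suspension for Gapdh, and 1.19 on fibronectin and 1.79 in suspension for Actb. Its part in the ratios was not tested. Fibroblast markers were bright: 13 of 14 on the array reached the floor in both samples, with a summed signal of 280935 on fibronectin and 188309 in suspension, although the Vim probe set had only 686 on fibronectin and 1421 in suspension. Markers of macrophages and blood summed to 8056 on fibronectin and 11334 in suspension, of epithelium to 3611 on fibronectin and 5625 in suspension, of endothelium to 3938 on fibronectin and 7376 in suspension, and of muscle to 4016 on fibronectin and 4872 in suspension. Of these 32 markers on the array, 1 (Cd14) exceeded the highest negative control on fibronectin and 7 did in suspension. That control was at 2527 on fibronectin and only 1452 in suspension, so these counts are not at the same cut and cannot be set against each other.

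The family did not move as a block. Fosl1 and Fosl2 passed 2-fold upwards on fibronectin and Junb passed it downwards, with Fos just short of 2-fold lower. Jun was lower by less than 1.5-fold, and Fosb and Jund had nearly equal signals on both arrays. By gene, 5 of 7 log2 ratios were below 0, against 55.1% of all measured genes. The counts at 2-fold were 2 of 7 higher and 1 of 7 lower, beside 5.79% higher and 9.27% lower among all measured genes. At 1.5-fold 2 of 7 were higher and 2 of 7 lower, beside 15.9% and 22.6%. With so few members these shares only describe the family. The split over all measured genes itself moved with the scaling, to 9.33% higher and 6.34% lower at 2-fold under median scaling, 7.29% and 7.01% after quantile normalization, 7.23% and 6.89% after loess, and 2.11% and 22.1% with scaling to the hybridisation spikes. For the family, quantile normalization and loess each gave 2 higher and 2 lower at 2-fold, median scaling 2 higher and 0 lower, and scaling to the hybridisation spikes 1 higher and 3 lower. The median log2 ratio over the 7 genes was -0.0385, and it was 0.17 under median scaling and -0.51 with the spikes.

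**Figure D1:**
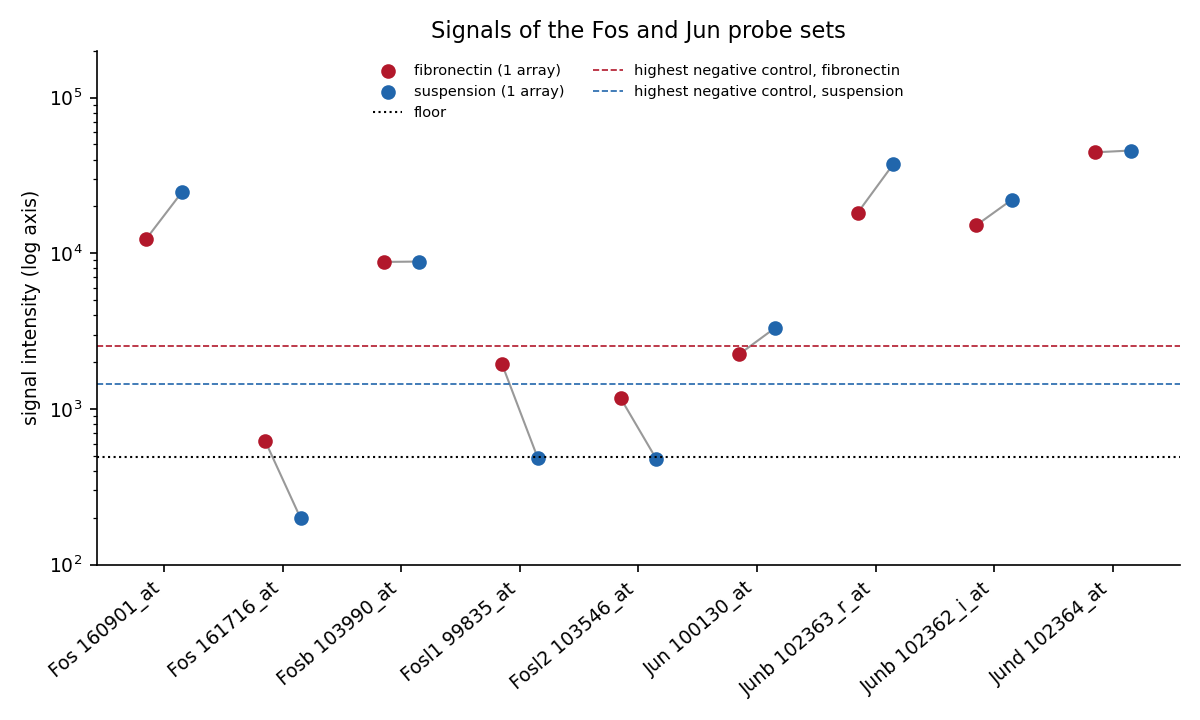
Signal intensity on a log axis of each of the 9 Fos and Jun probe sets on fibronectin (red, left) and in suspension (blue, right), 1 array each, with the floor of 490 dotted and the highest negative control of each array dashed (2527 on fibronectin, 1452 in suspension). The bright probe sets of Fos and Junb slope towards suspension, Fosb and Jund are level, and the dim Fosl1 and Fosl2 are higher on fibronectin but lie below the highest negative control there.

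Fos, the subunit that gave the family its name and the classical immediate early gene, was bright in both samples. Its main probe set, 160901_at, had a signal of 12413 on fibronectin and 24717 in suspension. It ranked 346th of 12422 probe sets that are not controls on fibronectin and 134th in suspension. Signals of different probe sets are not on 1 scale, because probes differ in affinity, so a rank says where a probe set lies on its array and not how much RNA the gene has. The log2 ratio was -0.99, or 1.99-fold lower on fibronectin. It ranged from -0.79 under median scaling to -1.47 with scaling to the spikes, and was -1.17 after quantile normalization. All 10 settings in which it was computed put it below 0. Both signals exceed every floor tried, so only the other scalings could move this ratio. In bulk RNA a lower level per cell and fewer cells with the message cannot be told apart. The other Fos probe set, 161716_at, pointed the other way, with 627 on fibronectin and 199 in suspension, at least 1.28-fold higher. On fibronectin 10 of 34 negative controls were as bright or brighter than it, and in suspension 24 of 34, so its signals lie among the background values. Averaging both probe sets would give Fos a log2 ratio of -0.32.

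Junb, a Jun protein that activates many AP-1 sites less strongly than Jun, had the pattern of Fos in both of its probe sets. The brighter, 102363_r_at, had 18255 on fibronectin and 37460 in suspension. It was the 223rd brightest on fibronectin and the 91st in suspension, with a log2 ratio of -1.04, or 2.05-fold lower. The other, 102362_i_at, had 15151 on fibronectin and 22122 in suspension, a log2 ratio of -0.55, or 1.46-fold lower. Both are annotated to the same transcript sequence, so they are not independent of each other, and their ratios differ by 0.49. Their mean was -0.79, which is under 2-fold. The ratio of the brighter ranged from -0.83 under median scaling to -1.51 with the spikes, and that of the other from -0.34 to -1.02 under the same settings.

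Decreases of this size were uncommon among bright genes. Of 999 genes in the top 10% of mean log2 signal, 1.10% were at least 2-fold lower on fibronectin and 6.71% at least 1.5-fold lower, while the middle of this group lay at a log2 ratio of 0.11 with a 5th percentile of -0.63. Ordered from the lowest ratio, Junb was 11th and Fos 12th of the 999. Of 175 probe sets within 0.5 of Fos in mean log2 signal, Fos itself included, 1 had a lower ratio, and of 107 around the brighter Junb probe set 1 did. Around the other Junb probe set, 9 of 166 (5.42%) did, and its log2 ratio of -0.55 lies above that 5th percentile. The place of Junb thus rests on its brighter probe set. These placements describe where both lie on these arrays and are no test. Among all measured genes, most of them much dimmer, ratios this low were more common, as the 9.27% above shows.

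**Figure D2:**
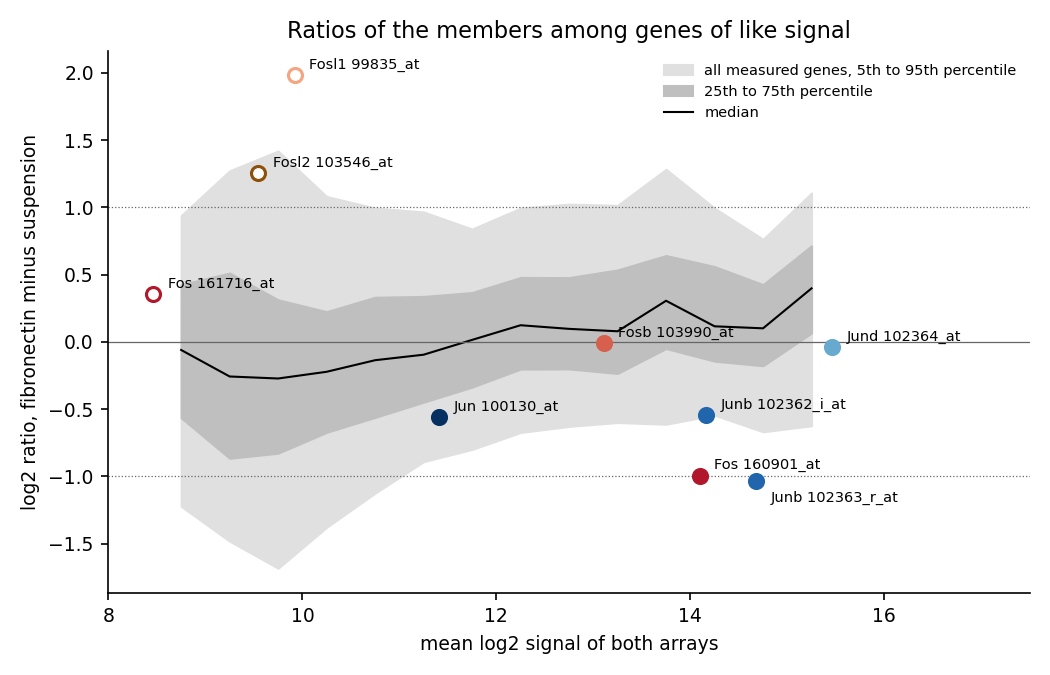
Log2 ratio, fibronectin minus suspension, against the mean log2 signal of both arrays for the 9 Fos and Jun probe sets, over the 5th to 95th percentile (light grey), the 25th to 75th percentile (dark grey) and the median (line) of all measured genes in bins of signal with at least 20 genes. Open points are bounds with 1 array under the floor, and dotted lines mark 2-fold. Fos 160901_at (-0.99) and Junb 102363_r_at (-1.04) lie below the grey band at the bright end, and Fosb and Jund lie near 0. At the dim end Fosl1 (1.98) lies above the band and Fosl2 (1.26) inside it.

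Jun, the founding Jun subunit and the substrate after which the JNK kinases are named, was dimmer. Its probe set 100130_at had 2248 on fibronectin and 3309 in suspension, ranks of 2524 on fibronectin and 1635 in suspension. The log2 ratio was -0.56, or 1.47-fold lower, which is inside the SD of 0.68 between probe sets of a gene. It was below 0 in all 10 settings, from -0.35 under median scaling to -1.03 with the spikes. Both signals of the Jun probe set exceed every floor tried, so only the other scalings could move this ratio. On fibronectin 1 of 34 negative controls was brighter than it and in suspension none was.

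Fosb and Jund did not share the lower signal of Fos and Junb. Fosb, which pairs with Jun proteins as Fos does, had 8801 on fibronectin and 8849 in suspension in its probe set 103990_at, ranks of 506 on fibronectin and 438 in suspension. Its log2 ratio of -0.0078 turned to 0.20 under median scaling. Jund, the Jun subunit expressed in resting cells, had the brightest probe set of the family, 102364_at, with 44512 on fibronectin and 45714 in suspension, ranks of 83 on fibronectin and 76 in suspension. Its log2 ratio of -0.0385 turned to 0.17 under median scaling, so neither has a settled direction. The ratio of the main Fos probe set lay 0.99 below that of Fosb and the ratio of the brighter Junb probe set 0.999 below that of Jund. Both gaps are on the log2 scale and untested. These gaps within an array pair do not depend on a factor that scales a whole array.

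Fosl1 and Fosl2 were the members with higher ratios, and both rest on dim signals. Fosl1, whose protein Fra-1 pairs with Jun proteins and lacks the strong activation domain of Fos, had 1934 on fibronectin and 486 in suspension in its probe set 99835_at. Suspension lay just under the floor, so the gene was at least 3.95-fold higher (log2 ratio 1.98). Its rank was 2918 on fibronectin and 7652 in suspension, and 99.4% of measured probe sets had a lower ratio. On fibronectin 2 of 34 negative controls were as bright or brighter, and in suspension 16 of 34. With the floor raised to the level of the negative controls, a signal of 1638, the bound shrank to a log2 ratio of 0.24. Fosl2 had 1171 on fibronectin and 478 in suspension in its probe set 103546_at, at least 2.39-fold higher (log2 ratio 1.26), with ranks of 4369 on fibronectin and 7712 in suspension. There 3 of 34 negative controls were as bright or brighter on fibronectin and 16 of 34 in suspension, and with the raised floor Fosl2 was not measured at all.

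**Figure D3:**
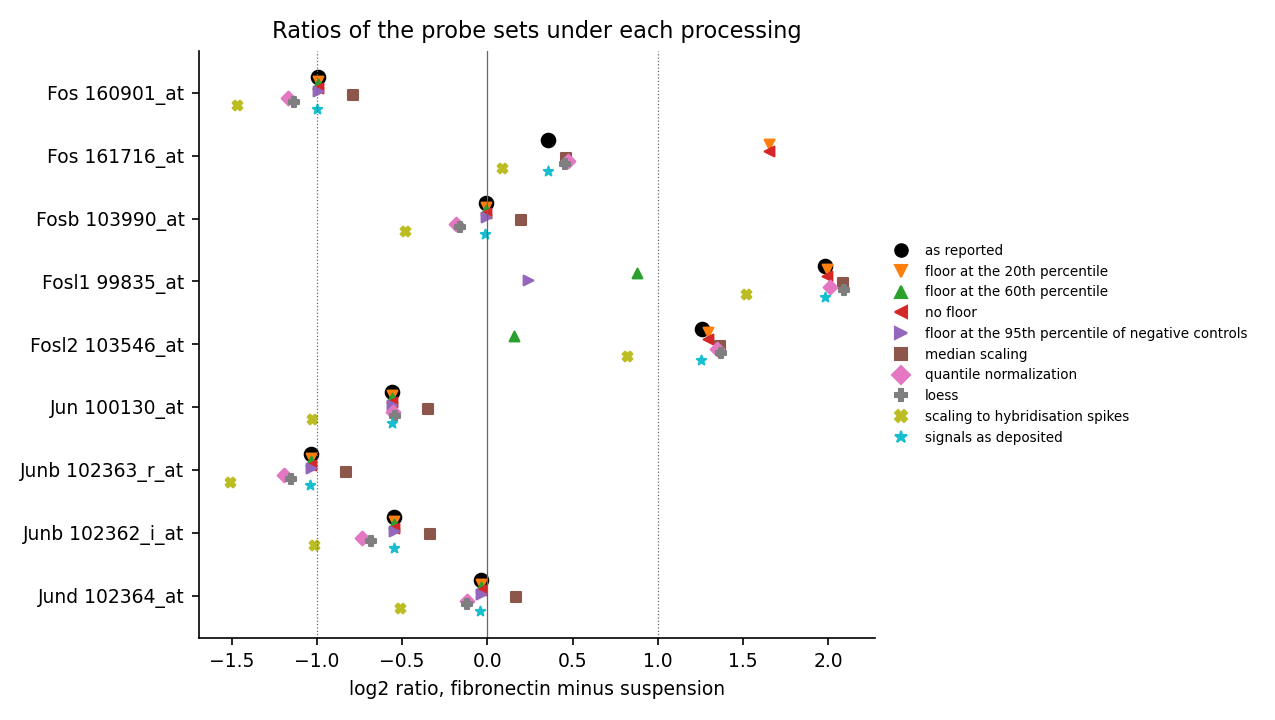
Log2 ratio, fibronectin minus suspension, of each Fos and Jun probe set as reported (black circle) and under up to 9 other settings of the floor and the scaling (8 for Fosl2 and 7 for Fos 161716_at, which were not measured in the rest), with dotted lines at 2-fold. The ratios of Fos 160901_at, Jun and both Junb probe sets stay below 0 throughout, though their signals exceed every floor, so only the scalings could move them. Those of Fosb and Jund cross 0 under median scaling, and those of Fosl1 and Fosl2 shrink to 0.88 and 0.16 with the floor at the 60th percentile. With the floor at the negative controls Fosl1 falls further to 0.24 and Fosl2 is not measured.

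The promoters of Fos, Junb and Jun are shown because these 3 members had the lowest ratios, and because AP-1 genes are known to be controlled through sites for CREB and AP-1 proteins close to the start. RefSeq promoters of GRCm38.p6 matched 6 of the 7 members, and the 250 bases before the annotated start are given 5′ to 3′ on the gene's strand, with motif matches in capitals. Fos lies on the plus strand at chr12:85473640-85473889, and Junb and Jun on the minus strand at chr8:84978749-84978998 and chr4:95052223-95052472.
Fos: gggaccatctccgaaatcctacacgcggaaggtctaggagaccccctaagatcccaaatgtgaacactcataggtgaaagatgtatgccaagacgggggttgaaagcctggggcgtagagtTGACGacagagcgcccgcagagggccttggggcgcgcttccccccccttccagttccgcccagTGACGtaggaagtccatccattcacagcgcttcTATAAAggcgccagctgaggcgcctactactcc
Junb: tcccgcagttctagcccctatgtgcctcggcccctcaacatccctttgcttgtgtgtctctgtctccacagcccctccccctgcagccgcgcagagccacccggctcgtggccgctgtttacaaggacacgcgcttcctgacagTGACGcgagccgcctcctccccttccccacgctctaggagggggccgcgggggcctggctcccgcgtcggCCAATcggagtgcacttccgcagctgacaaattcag
Jun: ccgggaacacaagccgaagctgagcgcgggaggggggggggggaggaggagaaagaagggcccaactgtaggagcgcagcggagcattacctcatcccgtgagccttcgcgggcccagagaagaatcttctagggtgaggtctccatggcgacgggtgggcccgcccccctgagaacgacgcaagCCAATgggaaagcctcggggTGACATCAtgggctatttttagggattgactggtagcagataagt

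Motifs were searched on both strands of these 250 bases and of all 32851 RefSeq promoters. The CRE core TGACG, which CREB and ATF proteins recognise, was found in 3 of the 6 member promoters, those of Fos, Fosb and Junb, and in 17.8% of all promoters. Fos held it at 129 to 125 and at 66 to 62 bases before the start, Junb at 106 to 102 and Fosb at 60 to 56. The Jun-type AP-1 site TGACATCA lay in the Jun promoter at 45 to 38 bases before the start and was present in 2.93% of all promoters. The TATA box TATAAA was found in Fos alone among the members and in 12.4% of promoters, and the CCAAT box CCAAT in Jun and Junb and in 33.8%. The letters of the AP-1 site TGANTCA, of the full CRE TGACGTCA and of the CArG box, the core of the serum response element, were in none of the 6 windows, and in 6.75%, 1.55% and 1.47% of all promoters. No listed motif was found for Fosl2 or Jund. Sites further than 250 bases before the start were not searched, so an absence holds for these windows only and not for the whole promoter. The capital letters mark matches only, and the arrays carry no measure of binding.

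Other basic leucine zipper proteins that pair with or compete with AP-1 subunits had no common direction. Of 11 measured genes of the ATF, CREB, BATF and C/EBP families, 5 had a ratio above 0 and 6 below (median log2 ratio -0.23), beside 55.1% of all measured genes below 0. At 2-fold 1 passed upwards and 3 downwards, 9.09% and 27.3% of the list beside 5.79% and 9.27% of all measured genes. With the floor at the negative controls, a signal of 1638, only Cebpd stayed 2-fold lower and none was 2-fold higher. Batf3, which pairs with Jun proteins in immune cells, had 519 on fibronectin and 1526 in suspension, 2.94-fold lower by these signals, and was not measured with that floor. Cebpd, an early inflammatory factor, was 2.21-fold lower, with 3906 on fibronectin and 8648 in suspension. Creb1, which binds the CRE of Fos, was at least 2.61-fold lower in 1 probe set, while the other gave a log2 ratio of -0.0044. Ddit3, the stress factor CHOP, was 2.08-fold higher, or at least 1.52-fold with the raised floor, and Crem, a relative of CREB, at least 1.68-fold higher. Atf3, a stress-induced partner of Jun, had 7345 on fibronectin and 5583 in suspension, 1.32-fold higher, with a log2 ratio of 0.042 in its other probe set. Of 9 measured Maf, Nrf and Bach genes, 6 were above 0 and 3 below with a median of 0.18, beside 55.1% of all measured genes below 0. The largest ratio was that of the retinal factor Nrl, at least 2.04-fold lower, with 475 on fibronectin and 997 in suspension. It was the only gene of this list past 2-fold, 11.1% beside 9.27% of all measured genes. With the floor at the negative controls Nrl was not measured. The small Maf gene Mafg had log2 ratios of 0.73 and -0.92 in its probe sets, the repressor gene Bach1 0.60 and 0.69, Nfe2l1 0.51 and 1.10, and the antioxidant regulator Nfe2l2 0.40.

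The regulators of Fos transcription divided evenly. Of 14 measured genes from Ras to the factors that act on the Fos promoter, 7 had a ratio above 0 and 7 below. Of all measured genes 55.1% were below 0. The list's median log2 ratio was 0.0043. At 2-fold only Creb1 was lower, 7.14% of the list beside 9.27% of all measured genes, and 0 were higher beside 5.79%. Elk1, the ERK substrate that acts with SRF on the serum response element, was 1.71-fold higher, with 1351 on fibronectin and 788 in suspension. Its relative Elk3, which can repress, was 1.47-fold lower. Mef2d was 1.51-fold higher and the ERK-activating kinase gene Map2k1 1.49-fold lower, with -0.56 in its other probe set. The fibronectin signal of Map2k1, 1506, was also under that percentile. The list lost its balance with low signals kept: without a floor the median over 17 genes was -0.33.

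Of 14 measured genes of the JNK arm, which phosphorylates Jun, 10 had a ratio below 0, beside 55.1% of all measured genes. At 2-fold 2 were lower and 1 higher, which is 14.3% and 7.14% of the list beside 9.27% and 5.79% of all measured genes, and the median was -0.31. Both lower genes had fibronectin signals under 1873, the 95th percentile of the negative controls there, and with the floor at the negative controls 0 were lower. Mapk9, a JNK kinase, had 509 on fibronectin and 1408 in suspension, 2.77-fold lower by these signals, and was not measured with the raised floor. Map2k4, which activates JNK, had 827 on fibronectin and 2233 in suspension, 2.70-fold lower, or at least 1.36-fold lower with the raised floor. Mapk8, the other broadly expressed JNK gene, was 1.29-fold lower. Map3k7 was at least 1.82-fold lower and the scaffold gene Mapk8ip1 1.67-fold lower. The GTPase gene Cdc42, which acts on JNK and on the cytoskeleton, was 2.11-fold higher, with 5326 on fibronectin and 2520 in suspension.

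The list on turnover and activity of AP-1 messages and proteins holds genes that limit AP-1 and others that favour it, such as the message stabiliser Elavl1 and the coactivators Cops5 and Ncoa1. Of 13 measured, 9 were below 0, beside 55.1% of all measured genes. The median was -0.26, and it was -0.011 without a floor and -0.067 under median scaling. At 2-fold 1 was lower, 7.69% beside 9.27% of all measured genes, and 0 were higher. The lower gene was Zfp36, whose protein tristetraprolin speeds the decay of AU-rich messages such as Fos and is itself an immediate early gene. It had 1996 on fibronectin and 7134 in suspension, 3.57-fold lower. Its relative Zfp36l1 was 1.68-fold lower. Zfp36l2, a further relative named here after its values were seen, had a log2 ratio of 0.022 in its brightest probe set and 2.33 and 1.72 in the others. With the mean of a gene's probe sets 1 gene of the list was 2-fold higher. The ubiquitin ligase genes Itch and Cop1, whose products mark Jun proteins for degradation, were 1.88-fold and 1.57-fold lower, with -0.11 in the second probe set of Cop1. The kinase gene Csnk2a2 was 1.31-fold lower, with log2 ratios of -0.88 and 1.18 in other probe sets. The Zfp36 ratio of -1.84 lay below those of Fos and Junb.

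Of 34 measured genes known as AP-1 targets in fibroblasts and other cells, 24 lay above 0 and 10 below, beside 55.1% of all measured genes below 0. At 2-fold 10 passed upwards and 1 downwards, which is 29.4% and 2.94% of the list beside 5.79% and 9.27% of all measured genes. The count of higher genes changed with the floor. It was 7 of 31 at the 60th percentile, beside 3.41% of all measured genes. At the level of the negative controls it was 2 of 26, beside 2.89% of all measured genes. Averaging a gene's probe sets also gave 7, beside 5.2% of all measured genes. The 2 left by the highest floor were Hmox1 and Ctsl, an enzyme of haem breakdown and a lysosomal protease. Hmox1 had 38703 on fibronectin and 13709 in suspension, 2.82-fold higher, and Ctsl had 22878 on fibronectin and 8373 in suspension, 2.73-fold higher. The list's median log2 ratio was 0.31. Many AP-1 targets answer to other factors as well, and the list was written with earlier results of these arrays known, so the count says nothing of AP-1 activity. The 10 were Vegfa, Plaur, Mmp9, Ptgs2, Egfr, Mmp13, Cd44, Hmox1, Ctsl and Tgfb1, and in 6 of them the signal on fibronectin exceeded the highest negative control. The other measured probe set of Cd44 had a log2 ratio of -0.11. Vegfa, an angiogenic growth factor, was at least 5.62-fold higher with 2753 on fibronectin and 388 in suspension. Plaur, the urokinase receptor, was at least 3.77-fold higher. Ptgs2, the inducible prostaglandin synthase, had 1818 on fibronectin and 513 in suspension, 3.55-fold higher by these signals, or at least 1.11-fold higher with the floor at the negative controls. For Vegfa and Plaur that floor left at least 1.68-fold and 1.13-fold. Mmp9, a gelatinase, was 3.72-fold higher in 1 probe set, or at least 1.89-fold with that floor, against -0.48 in the other, and Egfr was at least 3.32-fold higher in 1 with 0.38 and -0.62 in the others. With scaling to the spikes 8 of the list passed 2-fold upwards and 6 downwards, beside 2.11% and 22.1% of all measured genes.

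The other immediate early genes, in comparison, centred on 0, with 11 of 22 above, 11 below and a median of -0.015. Of all measured genes 55.1% were below 0. At 2-fold 1 was higher and 3 lower, which is 4.55% and 13.6% of the list beside 5.79% and 9.27% of all measured genes. Besides Zfp36, Id1, an inhibitor of differentiation, was lower by a factor of 2.54. Ccn2, a matricellular gene, had 561 on fibronectin and 1600 in suspension, a factor of 2.85 by these signals, and was not measured with the floor at the negative controls, where 2 were lower. In this list the growth regulator gene Klf4 was 2.09-fold higher and Myc 1.43-fold higher. Whether the family differs from the rest of this group could not be tested with 1 array each.

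**Figure D4:**
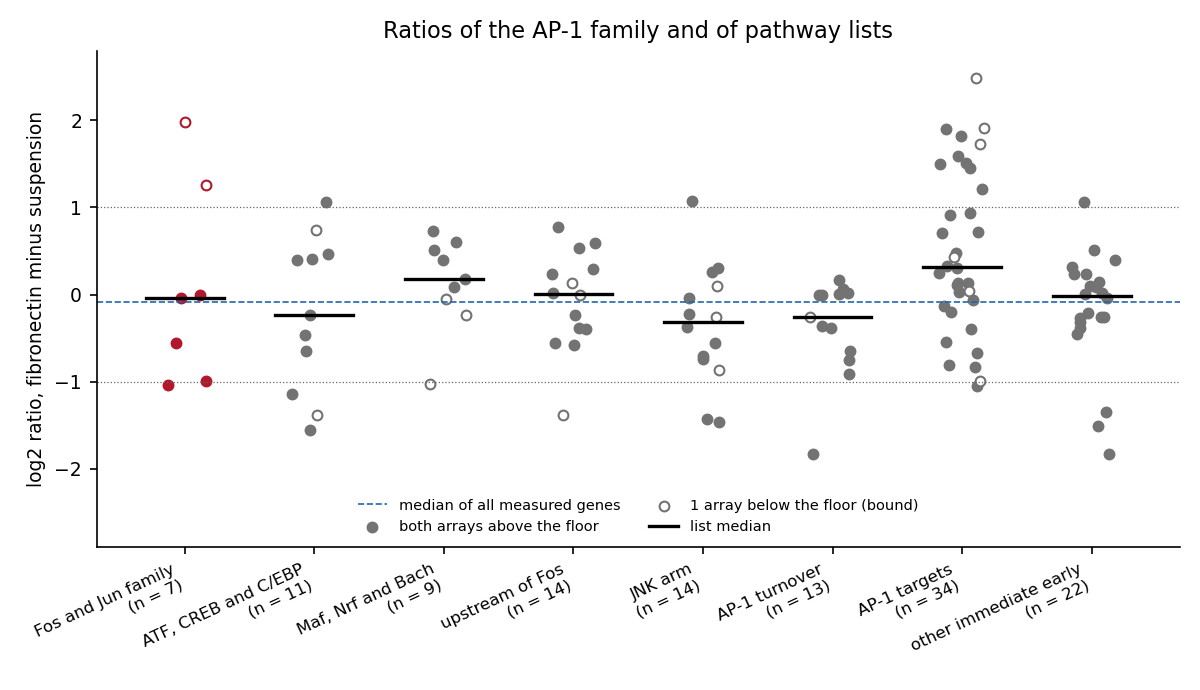
Log2 ratio, fibronectin minus suspension, of each measured gene of the Fos and Jun family (red) and of 7 pathway lists (grey), with the list median as a bar, the median of all measured genes (-0.088) dashed and dotted lines at 2-fold. Open points are bounds. The family spreads from -1.04 (Junb) to at least 1.98 (Fosl1), and the AP-1 target list has a median of 0.31, which became -0.090 with scaling to the spikes.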

How the data were processed

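Total RNA was hybridised to 1 MG_U74Av2 array for the fibronectin and 1 for the suspension sample, grouped by their titles. The submitters' processing notes name MAS5 for the deposited signal intensities. The sources used here do not give its version or scaling target, and no detection calls were used. Each array was scaled to its 2% trimmed mean over 12422 probe sets that are not controls, then floored at 490, the average 40th percentile, before log2. Trimmed means were 1486 on fibronectin and 1489 in suspension. The precision is limited by the number of arrays, and no test was possible. The platform annotation named 10833 probe sets with 1 gene, and RefSeq (GRCm38.p6), matched by gene ID, changed 0 symbols. The brightest probe set stood for a gene. The 34 negative controls were antisense, unspiked bacterial and yeast probe sets. Named genes were all members, the up to 5 largest absolute ratios of each list, and Atf3, Jdp2, Srf, Elk1, Mapk8 and Mapk9 where measured. A further gene of this rule is not reported here. Members and lists were chosen with earlier results of these data known. Other floors, scalings, folds and probe set rules were tried. Scripts used Python 3.11.15 with statsmodels 0.14.6 for loess, and were tested on simulated data.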

Additional observations from a re-analysis of the deposited data

How the results depend on the processing

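No paired analysis was possible because each group has 1 array. Median scaling moved the median over all measured genes to 0.11 on the log2 scale and scaling to the spikes moved it to -0.51, from -0.088 as reported, and the members followed. At 2-fold 2 members were higher and 1 lower as reported. The count of higher members was 0 at a floor of the 60th percentile and 0 at a floor of the negative controls, by construction of the bounds, 1 with the spikes and 1 at 3-fold. The count of lower members was 0 under median scaling, 0 with the mean of a gene's probe sets, 0 at 3-fold, 2 after quantile normalization, 2 after loess, 2 at 1.5-fold and 3 with the spikes. Under median scaling 3 members were below 0. With the spikes the family median was -0.51, and those of the ATF, Maf, Fos-regulator, JNK, turnover, target and early lists were -0.71, -0.26, -0.35, -0.77, -0.48, -0.090 and -0.49. Under median scaling the ATF, Maf, Fos-regulator, turnover, target and early lists had -0.024, 0.49, 0.22, -0.067, 0.52 and 0.19. The Fos-regulator list had -0.33 at a floor of the 20th percentile and -0.33 without a floor, the turnover list -0.011 without a floor, and the ATF list 0.082 with the floor at the negative controls. Flooring at that level left 26 measured genes in the target list, 6 in the JNK list, 8 in the ATF list and 19 in the early list. There the target list had 2 higher and 0 lower at 2-fold, the JNK list 1 and 0, the ATF list 0 and 1 and the early list 1 and 2. Of all measured genes 2.89% were higher and 1.42% lower with that floor. At 2-fold the spikes gave 0 higher and 6 lower of 14 in the JNK list, 0 and 4 of 11 in the ATF list and 0 and 3 of 22 in the early list. Of all measured genes 2.11% were higher and 22.1% lower with the spikes. Ranks among probe sets with 1 gene moved by less than 5 percentage points. Signal over background limits Fosl1, Fosl2 and the second Fos probe set, and 1 array a group limits every ratio.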

Other observations

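Among the 999 bright genes, 10 had a ratio below that of Junb, and they are named here after their values were seen. Of these 10, 3 encode regulators known to respond quickly to cytokines, serum or other signals: Id1, an inhibitor of differentiation factors, with a log2 ratio of -1.34, Socs3, a feedback inhibitor of cytokine receptors, with -1.23, and Cebpd, an early inflammatory factor, with -1.15. The other 7 were Med22, Got2, Actb, Aopep, Wbp2, Zfp94 and Gm29722, with log2 ratios from -1.10 to -2.10. Actb had -1.25 in the probe set counted here. Its control probe sets of the 3′, middle and 5′ parts had log2 ratios of -0.24, 0.33 and 0.35. These differ in sign among themselves, and none shows a decrease of that size. The 3 were not compared with other genes by any test. The share of such regulators among the 999 was not counted, and whether any of the other 7 also respond quickly was not assessed. The 3 therefore describe no theme.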
